A study of Homo sapiens with 45 samples.

Results

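The 45 genes described here encode the DNA replication machinery and the regulators of S phase entry. They were taken by symbol and are 45 of the 38557 genes in the expression tables. By role, 11 license origins and form the replicative helicase (ORC1, ORC6, CDC6, CDT1, GMNN and MCM2 to MCM7), 6 activate the helicase (MCM10, CDC45 and GINS1 to GINS4), and 7 encode subunits of the replicative polymerases and primase (POLA1, POLA2, PRIM1, POLD1, POLD3, POLE and POLE2). Another 8 encode the sliding clamp PCNA, its loader subunits RFC2 to RFC5, the lagging strand enzymes FEN1 and LIG1, and the single-strand binding subunit RPA2. Nucleotide supply has 4 (RRM1, RRM2, TYMS and TK1), G1/S control has 4 (E2F1, E2F2, CCNE1 and CCNE2), and the last 5 act in chromatin assembly, maintenance methylation or fork and replication control (CHAF1A, CHAF1B, UHRF1, CLSPN and DTL). All 45 were present in both tables and reached 1 TPM (transcripts per 1000000) in at least 3 libraries of each.

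The study targeted subunits of cBAF, the canonical BAF chromatin remodelling complex, in 4 human T-cell acute lymphoblastic leukaemia (T-ALL) lines. Poly(A) RNA was measured in 45 libraries, 3 in each of 15 groups. Jurkat cells that expressed Cas9 received lentiviral guides labelled gARID1A, gARID1A_1B, gSMARCA4 or gSMARCA4_A2, or the control guide gAAVS1. All 5 guide groups carried Cas9, were selected in puromycin for 4 days and gave RNA on day 10. ARID1A and ARID1B are alternative cBAF subunits, SMARCA4 is an ATPase of the complex and SMARCA2 is the paralogous ATPase. Neither ATPase is particular to cBAF, so the SMARCA4 and SMARCA2 guides and the inhibitor do not address cBAF alone. Separately, Jurkat cells were treated with 1 uM BRM014, an inhibitor of both ATPases, or with 0.01% DMSO, for 6 h or 8 d, and the lines CCRF-CEM, KOPT-K1 and TALL-1 were treated with the same agents for 6 h. The 8 d time is given by the sample labels, whereas the text on the study's design gives only the 6 h treatment. The guide groups address the response to targeting named subunits over days, and the inhibitor groups the response to the compound over hours and, in Jurkat, days.

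Jurkat RNA was extracted and made into libraries with other kits than RNA of the 3 other lines, and the Jurkat kit did not keep strand, so the lines were compared by their responses and not by their levels. The depth was 29.67 to 47.93 M reads per Jurkat library and 19.72 to 27.04 M in the others, and the least covered member, CCNE1, had at least 420 reads in Jurkat and 207 elsewhere. Of 11 T lineage markers, 9 to 11 had a mean of at least 1 TPM in each line, while B cell markers summed to at most 9.53 TPM (KOPT-K1, mostly BLK) and myeloid markers to at most 0.966 TPM. Erythroid and megakaryocyte markers summed to at most 4 TPM (Jurkat). Epithelial and fibroblast markers summed to at most 9.88 TPM in CCRF-CEM, mostly EPCAM, and 9.59 TPM in Jurkat. SMARCA4 RNA was 97.5 ± 2.41 TPM (SD, n = 3) with gAAVS1, 44.2 ± 1.63 with gSMARCA4 and 49.9 ± 2.35 with gSMARCA4_A2. ARID1B was 22.7 ± 0.525 TPM with gAAVS1 and 11.9 ± 0.993 with gARID1A_1B. ARID1A was 94.4 ± 0.697 TPM with gAAVS1, 83.1 ± 3.38 with gARID1A and 101 ± 5.07 with gARID1A_1B, and SMARCA2 was 21.8 ± 0.931 with gAAVS1 and 22.4 ± 0.288 with gSMARCA4_A2. Guide-directed cuts may leave mRNA at its normal level, so these values do not check the labels for ARID1A and SMARCA2.

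In G1, the origin recognition complex, CDC6 and CDT1 load the MCM helicase onto DNA, and geminin (GMNN) blocks CDT1 once S phase has begun. CDC45 and the GINS complex turn the loaded MCM ring into a moving helicase, and the polymerases, the clamp and its loader follow it. Many of these genes are transcribed together at the G1/S boundary under E2F factors, which cyclin E and CDK activity release from the RB proteins, so their mRNA is widely used as a sign of proliferation. In bulk RNA, fewer cells in S phase and less mRNA per cell cannot be told apart, and this holds for every difference below.

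In untreated Jurkat (DMSO, 6 h) the median member stood at 72.4 TPM. TYMS (594 ± 9.22 TPM, SD, n = 3), which makes thymidylate, and PCNA (570 ± 28.8 TPM) were the highest, followed by the helicase subunits MCM7 (341 ± 13.4 TPM) and MCM3 (304 ± 10.2 TPM). The lowest were POLA1 (24.1 ± 1.23 TPM), the catalytic subunit of polymerase alpha, and RFC3 (24.8 ± 0.808 TPM). The median member stood at 95.8 TPM in CCRF-CEM, 93.8 TPM in KOPT-K1 and 90.8 TPM in TALL-1 under DMSO.

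Promoter words, which the choice by symbol did not use, were searched in the members. RefSeq promoter windows (GRCh38.p14, 250 bases before to 50 after the start of the gene) were available for 39 members in 50 windows; MCM4, MCM5, GINS4, POLD3, RPA2 and CCNE2 had none. The words TTTCCCGC, TTTGGCGC, TTTCGCGC and TTTGCCGC, which resemble the site that E2F factors bind, were searched on both strands, and matches may overlap. At least 1 of them was found in 24 of the 50 windows (48.0%), in 23 of the 39 members, and in 3.3% of all 35116 windows. The word CCAAT was in 60.0% of the members' windows and in 34.6% of all windows. The word TTTGAA, known from promoters of genes expressed late in the cycle, was in 2.0% of them and in 15.2% of all. For comparison, the 34 windows of a list of mitosis genes held the E2F-like words in 11.8% and TTTGAA in 52.9%. These are letter matches and not measured binding.

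Stretches upstream of the start are shown for members the results below turn on, each 5′ to 3′ on the gene's own strand in the GRCh38.p14 build, with bases covered by an E2F-like match in capitals. MCM6 (chr2:135876519-135876608, minus strand), E2F1 (chr20:33686386-33686465, minus) and PCNA (chr20:5126653-5126732, minus) represent the helicase, the regulators and the clamp. TYMS (chr18:657573-657652, plus), UHRF1 (chr19:4909421-4909500, plus) and RRM2 (chr2:10122659-10122738, plus) moved in 1 direction in all 4 lines at 6 h. RFC5 (chr12:118016623-118016702, plus) was the member that departed furthest from the others in Jurkat. The stretches of RRM2 and RFC5 had no match.
MCM6: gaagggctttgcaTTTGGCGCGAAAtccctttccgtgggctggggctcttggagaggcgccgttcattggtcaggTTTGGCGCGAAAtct
E2F1: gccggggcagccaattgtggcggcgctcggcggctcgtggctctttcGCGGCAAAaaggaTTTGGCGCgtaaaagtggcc
PCNA: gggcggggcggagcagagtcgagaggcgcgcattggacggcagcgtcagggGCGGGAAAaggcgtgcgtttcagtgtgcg
TYMS: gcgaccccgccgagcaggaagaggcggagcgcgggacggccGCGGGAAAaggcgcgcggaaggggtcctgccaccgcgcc
UHRF1: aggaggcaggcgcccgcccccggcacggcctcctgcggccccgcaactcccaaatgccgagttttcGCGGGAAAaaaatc
RRM2: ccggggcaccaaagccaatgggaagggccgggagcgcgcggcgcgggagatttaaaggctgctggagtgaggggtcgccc
RFC5: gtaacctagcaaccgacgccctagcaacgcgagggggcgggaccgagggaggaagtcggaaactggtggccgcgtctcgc

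After 6 h of BRM014 in Jurkat, most members that changed were higher. Differences are on the log2(TPM + 1) scale throughout, ± is their standard error unless SD is written, and a gene was called changed at an adjusted p under 0.05 in limma over all 17936 genes tested. By this rule 26 of the 45 rose and 4 fell, where 26.8% of all genes rose and 20.7% fell. The median member differed by 0.15 (from −0.27 to 0.55) and the median of all genes by 0.04. P-values here rest on the spread between libraries within groups, pooled over all groups fitted together (9 in Jurkat, 6 in the other lines). Each group had 3 libraries, each labelled a biological replicate.

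**Figure D1:**
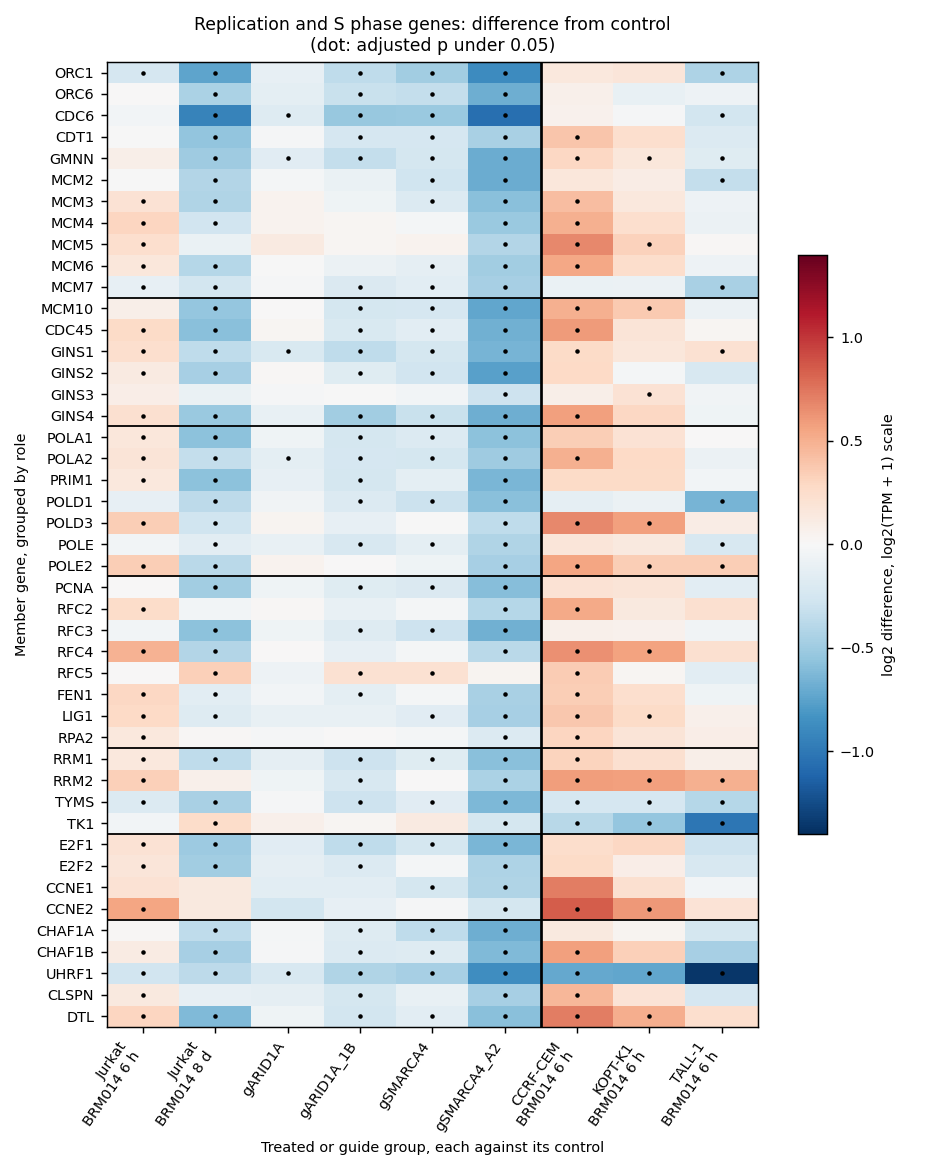
Log2 difference of each of the 45 members (rows, ordered by role) in the 9 comparisons with a control (columns), with dots marking members called changed by limma at an adjusted p under 0.05. The Jurkat 6 h, CCRF-CEM and KOPT-K1 columns are mainly positive. The Jurkat 8 d, guide and TALL-1 columns are mainly negative, with medians of only −0.06 for gARID1A and −0.07 for TALL-1.

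CCNE2, which encodes a cyclin E that drives entry into S phase, had 48.3, 58.5 and 45.7 TPM under DMSO and 65.9, 83.3 and 74.9 TPM under BRM014 at 6 h. The groups did not overlap, and the difference was 0.55 ± 0.09 (limma, adjusted p = 5.2e-05). RFC4, a clamp loader subunit, had 141, 142 and 138 TPM under DMSO and 194, 196 and 200 TPM under BRM014. Its libraries lay well apart, with a difference of 0.49 ± 0.05 (limma, adjusted p = 2.7e-08). The polymerase delta subunit POLD3 rose by 0.34 ± 0.05, the polymerase epsilon subunit POLE2 by 0.34 ± 0.07 and RRM2, the S phase subunit of ribonucleotide reductase, by 0.33 ± 0.08. RRM2 was at 271, 312 and 279 TPM under DMSO and at 337, 388 and 362 TPM under BRM014, again without overlap.

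By role at 6 h, 4 of the 6 helicase activators rose, 5 of the 7 polymerase and primase subunits, 5 of the 8 clamp and lagging strand genes and 3 of the 4 G1/S regulators, with none of these lower. In the licensing group 4 of 11 rose and 2 fell, and its median difference was 0.00. The licensing factors CDC6 (−0.04 ± 0.06, limma, adjusted p = 0.56) and MCM2 (−0.01 ± 0.04, adjusted p = 0.86) were not called, nor were GMNN (0.08, adjusted p = 0.18), PCNA (0.01 ± 0.05, adjusted p = 0.89) and CCNE1 (0.20 ± 0.10, adjusted p = 0.095). CDC6 had 62.8, 74.9 and 62.7 TPM under DMSO and 63, 66.8 and 63.8 TPM under BRM014, so its groups overlapped.

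The 4 members that fell at 6 h were UHRF1 (−0.27 ± 0.05), which directs maintenance methylation behind the fork, ORC1 (−0.23 ± 0.04), TYMS (−0.19 ± 0.03) and MCM7 (−0.11 ± 0.04). UHRF1 had 112, 122 and 115 TPM under DMSO and 91.3, 104 and 93.6 TPM under BRM014. Each BRM014 library was below each DMSO library. The call on MCM7 (limma, adjusted p = 0.038) was lost in 6 alternatives (adjusted p up to 0.19, without BRM014 replicate 1). The transcription factor gene E2F1 rose by 0.20 ± 0.07 (limma, adjusted p = 0.02), a call lost when only these 2 groups were fitted (adjusted p = 0.13, the highest of its alternatives) or without BRM014 replicate 2, DMSO replicate 1 or DMSO replicate 3.

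After 8 d the picture was the opposite in sign. Of the 45 members, 35 fell and 2 rose, where 23.0% of all genes fell and 36.9% rose. The median member differed by −0.38 (from −0.93 to 0.33), against 0.08 for all genes. Of the licensing group 10 of 11 fell, of the helicase activators 5 of 6, of the polymerases all 7, and of the assembly and fork group 4 of 5. In the clamp group 5 of 8 fell and 1 rose. Nucleotide supply was split, with 2 of 4 lower and 1 higher.

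CDC6 had 58.7, 62.9 and 66.6 TPM under DMSO at 8 d and 31.7, 32.1 and 33.1 TPM under BRM014. The groups lay far apart, and the BRM014 level was 0.52 times that of DMSO on the TPM + 1 scale (log2 difference −0.93 ± 0.06, limma, adjusted p = 8.4e-12). ORC1, the large subunit of the origin recognition complex, had 40.2, 39.4 and 41.2 TPM under DMSO and 24.4, 23.7 and 23.1 TPM under BRM014, a difference of −0.74 ± 0.04 (limma, adjusted p = 2.4e-12). DTL, the substrate receptor of the ubiquitin ligase that degrades CDT1, fell by 0.62 on the log2 scale, CDC45 by 0.58 and the clamp loader subunit RFC3 by 0.57.

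PCNA was at 538, 580 and 580 TPM under DMSO and at 408, 403 and 400 TPM under BRM014 at 8 d, without overlap (−0.49 ± 0.05, limma, adjusted p = 2.9e-08). MCM2 was at 184, 193 and 185 TPM under DMSO and at 145, 135 and 142 TPM under BRM014 (−0.41 ± 0.04, adjusted p = 8e-09). GMNN differed by −0.50 ± 0.04 and E2F1 by −0.51 ± 0.07, and both calls held in each alternative run. The 8 members not called at 8 d were MCM5, GINS3, RFC2, RPA2, RRM2, CCNE1, CCNE2 and CLSPN. The cyclin E genes CCNE1 (0.14, limma, adjusted p = 0.22) and CCNE2 (0.14, adjusted p = 0.21) both had a positive value there.

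The 2 members that rose at 8 d were RFC5 and TK1. RFC5, a clamp loader subunit like RFC3 and RFC4, had 53.2, 52.8 and 57.6 TPM under DMSO and 65.7, 69.3 and 71.7 TPM under BRM014, without overlap (0.33 ± 0.05, limma, adjusted p = 1.4e-05). TK1, the thymidine salvage kinase, had 46.1, 53 and 46.1 TPM under DMSO and 60.7, 54.6 and 58.6 TPM under BRM014 (0.26 ± 0.06, adjusted p = 0.0012). The call on TK1 was lost when libraries were rescaled by their median ratio (0.17, adjusted p = 0.062). Since the Jurkat libraries do not keep strand, reads from overlapping genes on the opposite strand cannot be told apart from a member's own. Whether such reads were counted for the member or dropped is not given in the sources used here. Of the exon bases of RFC5, 10.6% overlap such genes, WSB2 among them. The share was 46.6% for TYMS, 37.1% for CCNE2 (INTS8), 23.6% for MCM2, 23.6% for GINS4 and 10.9% for GINS3.

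**Figure D2:**
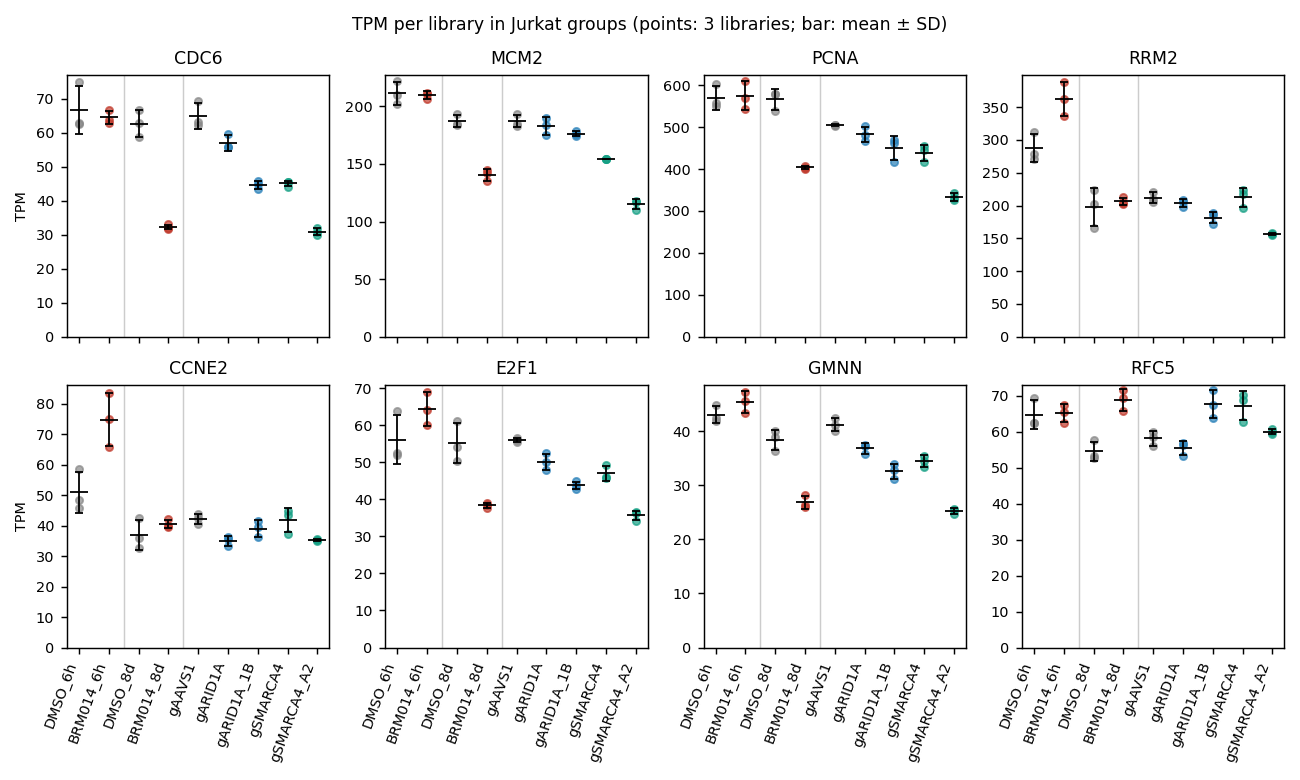
TPM of CDC6, MCM2, PCNA, RRM2, CCNE2, E2F1, GMNN and RFC5 in the 9 Jurkat groups; points are the 3 libraries of a group and bars their mean ± SD. BRM014 at 8 d and gSMARCA4_A2 give the lowest CDC6, MCM2, PCNA, E2F1 and GMNN, whereas RFC5 does not follow them.

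In 20 members the direction turned between the times, called higher at 6 h and lower at 8 d: MCM3, MCM4, MCM6, CDC45, GINS1, GINS2, GINS4, POLA1, POLA2, PRIM1, POLD3, POLE2, RFC4, FEN1, LIG1, RRM1, E2F1, E2F2, CHAF1B and DTL. None turned the other way, 4 were lower at both times (ORC1, MCM7, TYMS and UHRF1) and none was higher at both. Of all genes, 26.8% rose and 20.7% fell at 6 h, and 36.9% rose and 23.0% fell at 8 d. The shares of all genes called at both times are not given here. Of the 20, 12 kept both calls in every alternative run; GINS2, POLA1, PRIM1, FEN1, RRM1, E2F1, E2F2 and CHAF1B did not. The change of effect between the times was tested as a difference of differences. It was negative in 37 members and positive in 2, where 18.5% of all genes were called lower and 25.7% higher.

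RFC4, higher at 6 h, had 171, 150 and 156 TPM under DMSO at 8 d and 117, 123 and 118 TPM under BRM014, and its effect at 8 d minus that at 6 h was −0.89 (limma, adjusted p = 9.9e-10). DTL had 77.8, 85.2 and 80.1 TPM under DMSO and 94.8, 101 and 104 TPM under BRM014 at 6 h, and 78.4, 75.9 and 85 TPM against 50, 52.4 and 52.3 TPM at 8 d. Its groups were apart at both times, in opposite directions, with a difference of effects of −0.92 (adjusted p = 2.1e-09). CDC6 changed by −0.89 ± 0.08 between the times without a call at 6 h. RFC5 (0.32, adjusted p = 0.0014) and TK1 (0.30, adjusted p = 0.0084, or 0.25 with adjusted p = 0.064 after median-ratio rescaling) were the 2 members with a positive difference.

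The DMSO controls themselves differed between the times. At 8 d, 30 members were lower than at 6 h and 1 was higher, where 18.7% of all genes were lower and 16.6% higher, and the median member differed by −0.17. CCNE1 (−0.57 ± 0.10), RRM2 (−0.55 ± 0.08) and E2F2 (−0.50 ± 0.06) differed most, and RFC4 was higher (0.18 ± 0.05). RRM2 stood at 271, 312 and 279 TPM at 6 h and at 166, 203 and 223 TPM at 8 d. Only 13 members were called lower, and none higher, when these 2 groups were fitted alone. Each BRM014 effect was measured against the DMSO group of its own time. What differed between the cultures of the 2 times was not tested.

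**Figure D3:**
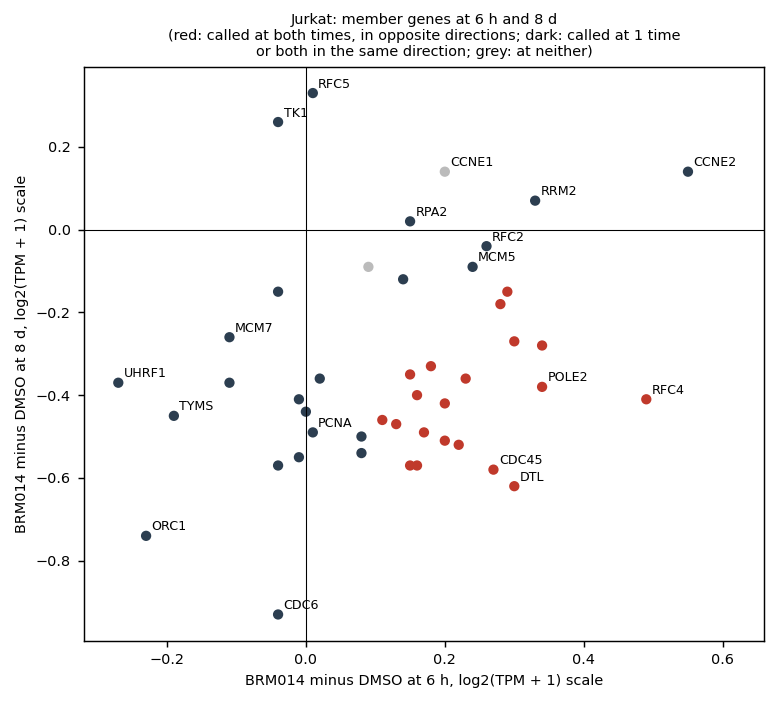
Log2 difference under BRM014 at 8 d (vertical axis) against that at 6 h (horizontal axis) for the 45 members in Jurkat, with named members. Most points lie to the right of 0 and below 0, CDC6 is lowest near 0 at 6 h, and RFC5 and TK1 lie above 0 at 8 d.

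Guide depletion lowered members as well, and the count was highest with gSMARCA4_A2. All 4 guide comparisons share the gAAVS1 libraries. With gSMARCA4_A2, 44 of 45 members fell and none rose, where 21.1% of all genes fell and 40.9% rose (for increases, limma at an unadjusted p under 0.05 gave 0 and limma-voom 0). The median member differed by −0.57 (from −1.05 to 0.04), against 0.11 for all genes. Median-ratio rescaling shifted all genes by 0.14, and the members' median was then −0.72. RFC5 was the member not called (0.04 ± 0.05, limma, adjusted p = 0.48).

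CDC6 had 69.3, 63.2 and 62.4 TPM with gAAVS1 and 29.9, 30.9 and 31.9 TPM with gSMARCA4_A2, 0.48 times the control on the TPM + 1 scale (−1.05 ± 0.06, limma, adjusted p = 2.1e-12). ORC1 had 44.1, 43.6 and 43.7 TPM with gAAVS1 and 23.1, 22.7 and 24.1 TPM with gSMARCA4_A2 (−0.88 ± 0.04), and UHRF1 102, 98.9 and 102 TPM against 55, 55.9 and 54 TPM (−0.87 ± 0.05). None of these groups overlapped. GINS2, a subunit of the GINS ring, differed by −0.76 ± 0.05, and MCM10, which helps to start the helicase, by −0.73 ± 0.04. MCM2 (−0.70 ± 0.04), GMNN (−0.69 ± 0.04), E2F1 (−0.64 ± 0.07) and PCNA (−0.60 ± 0.05) were also lower. PCNA had 506, 506 and 503 TPM with gAAVS1 and 325, 332 and 344 TPM with gSMARCA4_A2. RRM2 (−0.44 ± 0.08), CCNE1 (−0.42, adjusted p = 0.00068) and CCNE2 (−0.25, adjusted p = 0.023) were called too, at smaller values. The call on CCNE2 was lost without gAAVS1 replicate 1 or 2 or gSMARCA4_A2 replicate 3 (adjusted p up to 0.074).

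With gSMARCA4, 29 members fell and 1 rose, where 15.8% of all genes fell and 25.1% rose, and the median member differed by −0.16. CDC6 had 44.2, 45.6 and 45.6 TPM, below every gAAVS1 library (−0.52 ± 0.06, limma, adjusted p = 2.8e-07). ORC1 differed by −0.49, UHRF1 by −0.47, MCM2 by −0.28, GMNN by −0.25, E2F1 by −0.25 and PCNA by −0.20, all called. RRM2 (0.00) and CCNE2 (−0.02) were not called, and CCNE1 (−0.25, adjusted p = 0.045) lost its call in most alternatives. RFC5 was the member that rose (0.21 ± 0.05, adjusted p = 0.0038). Set directly against gSMARCA4, gSMARCA4_A2 was lower in 43 members and higher in none, where 12.3% of all genes were lower and 26.5% higher (for increases, unadjusted limma 0 and limma-voom 0). The median member differed by −0.39, and by −0.50 after median-ratio rescaling. CDC6 (−0.53 ± 0.06), CDC45 (−0.52 ± 0.04) and PRIM1 (−0.49 ± 0.06), the primase subunit, differed most, and CCNE1 and CCNE2 were the 2 without a call.

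With gARID1A alone, 5 members fell and none rose, where 13.2% of all genes fell and 7.72% rose, so the members' share was near that of all genes (for increases, unadjusted limma 1 and limma-voom 0). They were UHRF1 (−0.22, limma, adjusted p = 0.0024), GINS1 (−0.21), CDC6 (−0.18, adjusted p = 0.027), GMNN (−0.16, adjusted p = 0.014) and POLA2 (−0.14). Median-ratio rescaling left 2 calls, without CDC6 and GMNN. CDC6 had 59.7, 55.8 and 55.7 TPM, close below the gAAVS1 range. MCM2 (−0.03), PCNA (−0.06), RRM2 (−0.06), E2F1 (−0.16), CCNE1 (−0.15) and CCNE2 (−0.26, adjusted p = 0.05) were not called.

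With gARID1A_1B, 29 members fell and 1 rose, where 23.1% of all genes fell and 17.0% rose, and the median member differed by −0.19. CDC6 had 43.5, 45.8 and 44.8 TPM (−0.53 ± 0.06, limma, adjusted p = 1.9e-07). GINS4 had 51.1, 48.8 and 49.3 TPM with gAAVS1 and 34.8, 35.5 and 34.7 TPM with gARID1A_1B, without overlap (−0.49 ± 0.04, adjusted p = 3.7e-09). UHRF1 (−0.42 ± 0.05), ORC1 (−0.35 ± 0.04) and GINS1 (−0.35 ± 0.05) came next, E2F1 differed by −0.35 ± 0.07 and GMNN by −0.33. PCNA (−0.17) and RRM2 (−0.22) were called in the main test and lost the call after median-ratio rescaling, with limma-voom and without gARID1A_1B replicate 1. MCM2 (−0.09, adjusted p = 0.087), CCNE1 (−0.15) and CCNE2 (−0.11) were not called. RFC5 rose here too (0.21 ± 0.05, adjusted p = 0.0028).

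Set directly against gARID1A, gARID1A_1B was lower in 18 members and higher in 1, where 10.6% of all genes were lower and 10.3% higher. GINS4 (−0.39), CDC6 (−0.35) and TYMS (−0.27) were lower and RFC5 higher (0.28). Set against gARID1A_1B, gSMARCA4_A2 was lower in 44 members and higher in none, where 14.0% of all genes were lower and 43.2% higher (for increases, unadjusted limma 0 and limma-voom 0). MCM2 (−0.61 ± 0.04), GINS2 (−0.60 ± 0.05) and MCM4 (−0.55 ± 0.06) differed most, and CCNE2 was the member without a call. The median was −0.32, −0.50 after median-ratio rescaling and −0.42 with limma-voom. Across the 5 guide groups, 43 members had their lowest mean with gSMARCA4_A2, and RFC5 and CCNE2 had theirs with gARID1A. In 32 members the mean was highest with gAAVS1. The shares of all genes with these orders are not given here. Against gAAVS1, 21.1% of all genes fell and 40.9% rose with gSMARCA4_A2.

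**Figure D4:**
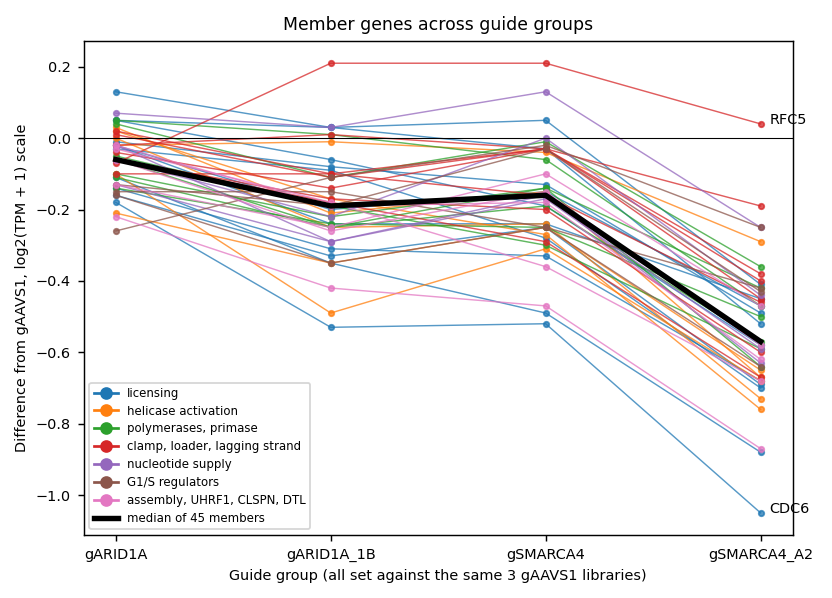
Log2 difference of each member from gAAVS1 (vertical axis) in the 4 guide groups (horizontal axis); thin lines join the values of a member and are coloured by role, and the black line is the median of the 45 members. The values for gSMARCA4_A2 lie below those of the 3 other guide groups for nearly all members, and RFC5 stays at or above 0 in all but gARID1A.

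In the 3 other lines the members were counted after 6 h of BRM014. In CCRF-CEM 25 members rose and 3 fell, where 28.9% of the 16241 genes tested rose and 20.9% fell, with a median of 0.34 (from −0.72 to 0.85). In KOPT-K1 11 rose and 3 fell, where 22.9% of all genes rose and 15.2% fell, with a median of 0.19, so the share of members that rose was near that of all genes. In TALL-1 3 rose and 10 fell, where 26.6% of all genes rose and 19.3% fell, with a median of −0.07 (from −1.36 to 0.50). The share of members that fell in TALL-1 was therefore near that of all genes. The median of all genes was 0.05, 0.04 and 0.03 in the 3 lines. With libraries rescaled by their median ratio, 5 members rose and 3 fell in KOPT-K1, and 1 rose and 13 fell in TALL-1. Leaving out 1 library left as few as 5 increases in KOPT-K1 (without BRM014 replicate 2 or DMSO replicate 1) and 5 decreases in TALL-1 (without BRM014 replicate 1 or DMSO replicate 3).

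Replicate 3 stood apart in CCRF-CEM and in TALL-1. In TALL-1 under DMSO its read counts differed from those of replicates 1 and 2 by a chi-square per degree of freedom of 47.95 and 47.22, against 3.43 between those 2. In CCRF-CEM the values with replicate 3 ran from 21.89 to 38.89, against 5.03 and 5.23 between the other 2. In Jurkat at 6 h the values with replicate 2 were smaller, from 11.49 to 13.92 in both groups, against 3.65 and 3.77 between the other 2. In TALL-1 the mean over the members was 6.60, 6.57 and 6.83 in the 3 DMSO libraries on the log2 scale, and ran from 6.47 to 6.64 in the 3 BRM014 libraries, highest in replicate 3 of both groups. The mean over the mitosis genes was lowest there, at 6.87 against 7.22 and 7.33 under DMSO. Without replicate 3 of both TALL-1 groups 3 members rose and 7 fell, with a median of −0.06.

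In CCRF-CEM, CCNE2 had 52.9, 48.4 and 77.9 TPM under DMSO and 104, 93 and 124 TPM under BRM014, 1.8 times higher on the TPM + 1 scale (0.85 ± 0.22, limma, adjusted p = 0.0053). Replicate 3 was the highest library of both groups, also in the mean over all members (6.95 under DMSO and 7.24 under BRM014 on the log2 scale). By replicate number the members' mean differed by 0.35, 0.31 and 0.29. With the replicate number as a block 29 members rose, gaining POLA1, PRIM1, POLE and CCNE1, and without replicate 3 of both groups 26 rose. DTL had 71.8, 68.3 and 105 TPM under DMSO and 126, 120 and 153 TPM under BRM014 (0.72 ± 0.15), and the helicase subunit MCM5 187, 167 and 225 TPM against 303, 278 and 336 TPM (0.67 ± 0.11, adjusted p = 0.0001). Both pairs of groups were without overlap. CDC6 (0.06), MCM2 (0.16), PCNA (0.20), E2F1 (0.25) and CCNE1 (0.72 ± 0.30, adjusted p = 0.056, and adjusted p = 0.0053 with the block) were not called, and GMNN rose (0.29).

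In KOPT-K1 the increases were led by CCNE2 (0.61 ± 0.22, limma, adjusted p = 0.043), RRM2 (0.57 ± 0.13, adjusted p = 0.0034) and POLD3 (0.57 ± 0.13, adjusted p = 0.0025). CCNE2 lost its call after median-ratio rescaling (0.52, adjusted p = 0.074), without the filter, and without BRM014 replicate 2 or 3 or DMSO replicate 1 or 2 (adjusted p up to 0.17). POLD3 had 31.1, 35.9 and 36.8 TPM under DMSO and 47.2, 52.7 and 55.6 TPM under BRM014, without overlap. CDC6 (−0.02), MCM2 (0.10), PCNA (0.18), E2F1 (0.29) and CCNE1 (0.22) were not called. GMNN (0.16, adjusted p = 0.033) rose by a call lost after rescaling (0.08).

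In TALL-1 the decreases after UHRF1 were led by TK1 and POLD1, the catalytic subunit of polymerase delta. TK1 had 32.4, 33.6 and 37.4 TPM under DMSO and 15.3, 17.7 and 16.9 TPM under BRM014 (−1.01 ± 0.09, limma, adjusted p = 4.7e-07), and POLD1 194, 189 and 216 TPM against 117, 129 and 134 TPM (−0.65 ± 0.09, adjusted p = 1.6e-05). Neither gene's groups overlapped. MCM7 was lower by −0.45 ± 0.06 and ORC1 by −0.43 ± 0.13. CDC6 (−0.26 ± 0.10, adjusted p = 0.048), MCM2 (−0.33 ± 0.12, adjusted p = 0.031) and GMNN (−0.17, adjusted p = 0.021) also fell, and all 3 calls were lost without BRM014 replicate 1 or DMSO replicate 3. PCNA (−0.15), E2F1 (−0.29), CCNE1 (−0.04) and CCNE2 (0.19) were not called. GINS1 (0.21, adjusted p = 0.032) rose by a call lost after rescaling and without each of 5 libraries in turn (adjusted p up to 0.14).

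Just 4 members were called in the same direction in all 4 lines at 6 h: RRM2 and POLE2 rose, and TYMS and UHRF1 fell. The share of all genes called alike in the 4 lines is not given here. RRM2 had 414, 371 and 391 TPM under DMSO and 647, 560 and 571 TPM under BRM014 in CCRF-CEM (0.59 ± 0.13). It had 291, 400 and 417 TPM against 466, 580 and 587 TPM in KOPT-K1, and 263, 232 and 303 TPM against 369, 341 and 413 TPM in TALL-1 (0.50 ± 0.13, limma, adjusted p = 0.0067). The groups did not overlap in any of these lines. UHRF1 had 263, 243 and 317 TPM against 166, 144 and 188 TPM in CCRF-CEM (−0.72 ± 0.10), 223, 251 and 242 TPM against 134, 143 and 154 TPM in KOPT-K1 (−0.73 ± 0.10), and 101, 103 and 112 TPM against 38.6, 39.3 and 43.8 TPM in TALL-1 (−1.36 ± 0.10, adjusted p = 4.8e-08). UHRF1 in TALL-1 was the largest difference of any member in the 9 comparisons with a control.

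TYMS fell by 0.23 on the log2 scale in CCRF-CEM, 0.24 in KOPT-K1 and 0.40 in TALL-1, and POLE2 rose by 0.55, 0.34 and 0.34. RRM2 and UHRF1 kept their calls in all 4 lines in every alternative run. TYMS did not in CCRF-CEM (adjusted p = 0.15 without BRM014 replicate 2) and KOPT-K1 (0.16 without BRM014 replicate 1), nor POLE2 in KOPT-K1 (up to 0.11, without BRM014 replicate 3) and TALL-1 (up to 0.11, without DMSO replicate 1). The enzymes of nucleotide supply thus moved in opposite directions under the inhibitor, RRM2 higher and TYMS lower in 4 lines, with TK1 lower in the 3 lines other than Jurkat (−0.39 ± 0.09, −0.54 ± 0.09 and −1.01 ± 0.09) and not called in Jurkat at 6 h (−0.04, adjusted p = 0.63).

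**Figure D5:**
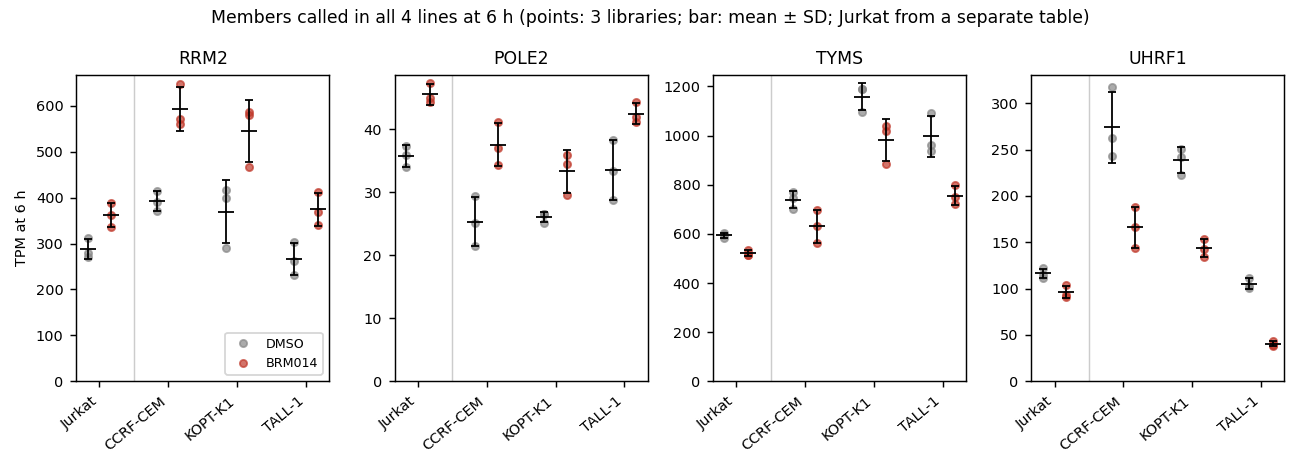
TPM of RRM2, POLE2, TYMS and UHRF1 under DMSO and BRM014 at 6 h in Jurkat, CCRF-CEM, KOPT-K1 and TALL-1; points are the 3 libraries of a group and bars their mean ± SD. Each gene separates the treated from the control libraries in all 4 lines, RRM2 and POLE2 upward and TYMS and UHRF1 downward.

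Differences between the responses of the 3 lines were tested directly. The response of CCRF-CEM was higher than that of TALL-1 in 19 members and lower in none, where 10.5% of all genes were higher and 9.85% lower (for lower values, unadjusted limma 0 and limma-voom 0). The count was 31 with the replicate block, 12 when only the groups compared were fitted or without TALL-1 DMSO replicate 3, and 11 without replicate 3 of both TALL-1 groups. CHAF1B, a subunit of the chromatin assembly factor, had 20, 18.3 and 32.4 TPM against 31, 27 and 48.7 TPM in CCRF-CEM and 23.6, 24.4 and 31.7 TPM against 16.1, 18.4 and 21.9 TPM in TALL-1. Its difference of responses was 1.05 ± 0.31 (limma, adjusted p = 0.026), although DMSO and BRM014 libraries overlapped in CCRF-CEM. Among the members called, CLSPN (0.71 ± 0.21) and MCM5 (0.64 ± 0.15) came next, and UHRF1, lower in both lines, had a difference of 0.64 ± 0.14. The calls on CHAF1B and CLSPN were lost when only the groups compared were fitted and without several single libraries (adjusted p up to 0.07 and 0.074).

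The response of KOPT-K1 was higher than that of TALL-1 in 10 members and lower in none, where 11.2% of all genes were higher and 10.1% lower (for lower values, 0 and 0). Among the members called, UHRF1 (0.63 ± 0.14), ORC1 (0.60 ± 0.19) and POLD1 (0.58 ± 0.12) differed most, while CHAF1B had 0.80 ± 0.31 without a call (adjusted p = 0.079). The count was 5 without TALL-1 DMSO replicate 3, and 8 without replicate 3 of both TALL-1 groups. Between CCRF-CEM and KOPT-K1 no member was called in either direction, where 8.62% and 9.72% of all genes were (limma at an unadjusted p under 0.05 gave 3 higher and 0 lower, and limma-voom 0). With the replicate block, MCM5, CDC45, GINS4 and RFC5 were called higher in CCRF-CEM, and 4 members were also called without CCRF-CEM DMSO replicate 3. The responses of the 45 members ran in a similar order in Jurkat and the other lines at 6 h, with a Pearson correlation across genes of 0.82 for CCRF-CEM, 0.77 for KOPT-K1 and 0.76 for TALL-1. Genes are not independent replicates, and over the 15069 genes tested in both tables the value for CCRF-CEM was 0.68.

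Most members followed each other over the 9 Jurkat groups. The Pearson correlation of a member with the mean of the other members, over these group means, had a median of 0.93 and was over 0.9 for 36 of 45. The share of all genes with such a correlation to the members is not given here. It was lowest for RFC5 (−0.11), followed by TK1 (0.61), CCNE2 (0.70), POLE (0.82), CCNE1 (0.83) and RRM2 (0.84). Outside the lists, the genes most like the members over these 9 groups, among 12026 candidates, were SKA3 (0.994), CHEK1 (0.989), HAUS8 (0.986), DDX11 (0.983) and CENPN (0.978). The mean over the members on the log2 scale was 6.42 to 6.48 in the DMSO libraries at 6 h, 6.54 to 6.59 with BRM014, 6.24 to 6.29 under DMSO at 8 d and 5.92 to 5.94 with BRM014. It was 6.30 to 6.31 with gAAVS1, 6.20 to 6.27 with gARID1A, 6.09 to 6.15 with gARID1A_1B, 6.09 to 6.17 with gSMARCA4 and 5.74 to 5.79 with gSMARCA4_A2. The libraries of BRM014 at 8 d and of gSMARCA4_A2 were therefore the lowest in each experiment, without overlap.

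The 23 members with an E2F-like word in their promoter window and the 16 with a window but no such word had similar responses in value. Their median differences were 0.13 and 0.13 at 6 h in Jurkat, −0.42 and −0.36 at 8 d, −0.58 and −0.59 with gSMARCA4_A2 and 0.27 and 0.35 in CCRF-CEM. These medians are given as a description without a test.

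Other replication genes, in a list of 43 that excludes the members, were counted in the same way. In it 20 rose and 4 fell at 6 h in Jurkat, 3 rose and 30 fell at 8 d, and 2 rose and 33 fell with gSMARCA4_A2. Of all genes, 26.8% rose and 20.7% fell at 6 h, and 36.9% rose and 23.0% fell at 8 d. With gSMARCA4_A2 40.9% of all genes rose and 21.1% fell. In CCRF-CEM 26 rose and 4 fell, in KOPT-K1 13 rose and 4 fell, and in TALL-1 8 rose and 8 fell. In these lines 28.9%, 22.9% and 26.6% of all genes rose, and 20.9%, 15.2% and 19.3% fell. The share of this list that fell in TALL-1 was near that of all genes. The origin firing factor gene TICRR differed by −0.82 ± 0.05 at 8 d and by −0.84 ± 0.05 with gSMARCA4_A2. In a list of E2F, RB and G1/S control genes (24 tested) the counts were split, with 5 higher and 6 lower at 6 h and 8 higher and 9 lower at 8 d. Both shares at 6 h, and the share higher at 8 d, were near those of all genes. CDK6, the kinase partner of D cyclins in RB phosphorylation, was lower in all 9 comparisons with a control, by −1.24 ± 0.08 at 6 h and −1.93 ± 0.08 at 8 d in Jurkat (limma, adjusted p = 3.7e-14) and by −0.78 ± 0.07 to −1.39 ± 0.07 in the other lines. The D cyclin gene CCND3 differed by −0.73 ± 0.15 at 6 h and −1.20 ± 0.15 at 8 d. Its DMSO mean was itself 405 TPM at 6 h and 205 TPM at 8 d. Another D cyclin gene, CCND2, was higher with gARID1A_1B (0.93 ± 0.05), gSMARCA4 (0.86 ± 0.05) and gSMARCA4_A2 (0.93 ± 0.05). In KOPT-K1 CCND2 was lower (−0.76 ± 0.08).

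Of 30 mitosis genes, 13 rose and 1 fell at 6 h in Jurkat, 1 rose and 20 fell at 8 d, and 28 fell with gSMARCA4_A2 with none higher. Of all genes, 26.8% rose and 20.7% fell at 6 h, 36.9% rose and 23.0% fell at 8 d, and 21.1% fell with gSMARCA4_A2. With gARID1A 14 of the 30 mitosis genes fell, against 5 of the 45 members and 13.2% of all genes. In CCRF-CEM 10 mitosis genes rose and 2 fell, where 28.9% of all genes rose and 20.9% fell. The share that rose there was near that of all genes. In KOPT-K1 1 mitosis gene rose and 2 fell, where 22.9% of all genes rose and 15.2% fell. In TALL-1 3 rose and 4 fell, where 26.6% of all genes rose and 19.3% fell. T lineage markers also moved with treatment in Jurkat, with 9 of 10 tested lower at 6 h, and 5 higher and 4 lower at 8 d. Their part in the members' differences was not tested.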

How the data were processed

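Poly(A) RNA was measured in 45 libraries of 4 T-ALL lines, 3 per group. The authors deposited TPM for 38557 genes, with Jurkat in a table of its own and the remaining lines in another, each scaled to 1000000 per library, and each deposited table holds gene lengths in bases (another quantity, used to recover reads). The submitters' processing notes name HISAT2 2.2.1, featureCounts 2.0.3, DESeq2 1.38.2 and hg38; the annotation and the strand setting are not given in the sources used here. The 45 members and the gene lists were chosen with earlier results of these data known.

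From TPM, log2(TPM + 1) was fitted with limma 3.58.1 in R 4.3.3 (trended, robust), all groups of a table together, over genes at 1 TPM or more in 3 or more libraries, with Benjamini-Hochberg adjustment and a threshold of 0.05; tables were made with Python 3.11.15. A pseudocount understates changes of low genes. TPM times length gave whole reads within 0.01 for 100% of values, and limma-voom was run on these. Alternatives were a pseudocount of 0.1, no filter, a filter of 5 TPM, median-ratio rescaling, limma-voom, only the groups compared, a replicate block and each library left out; CCRF-CEM and TALL-1 without replicate 3 were added after seeing the data.

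Named members were the up to 5 largest increases and decreases in the Jurkat BRM014, gARID1A_1B and gSMARCA4_A2 comparisons, up to 3 in others, 8 members always (CDC6, MCM2, PCNA, RRM2, CCNE1, CCNE2, E2F1 and GMNN), those called alike in 4 lines and those that turned between times; up to 3 genes per other list were eligible. Genes most like the members were ranked by correlation over 9 Jurkat group means. Other members in the text were chosen after their values were seen. Same-numbered libraries deviated together in CCRF-CEM (correlations of 0.12, 0.29 and 0.45), judged from the data alone; in no other comparison with a control were all 3 over 0.1. Replicates differed by more than counting noise (chi-square per degree of freedom 2.59 to 47.95), and none were identical.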

Additional observations from a re-analysis of the deposited data

Results flagged for a closer look

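The effect of BRM014 in Jurkat differed between 8 d and 6 h by a direct test of the difference (limma, adjusted p under 0.05) in 2 members upward and 37 downward. CDC6 differed by −0.89, DTL by −0.92 and RFC4 by −0.89 on the log2 scale, and RFC5 by 0.32 and TK1 by 0.30. The effect at 6 h differed between CCRF-CEM and TALL-1 in 19 members, all higher in CCRF-CEM, with CHAF1B at 1.05, CLSPN at 0.71 and MCM5 at 0.64. It differed between KOPT-K1 and TALL-1 in 10 members, all higher in KOPT-K1, with ORC1 at 0.60, POLD1 at 0.58 and UHRF1 at 0.63. Groups of 3 libraries are too small to test for a single library far from the others.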

How the results depend on the processing

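No called result for a named gene was reversed under the alternatives. Values near 0 without a call could change sign, such as RFC5 with gSMARCA4_A2 (0.04), where rescaling shifted all genes by 0.14. Of 255 results for single named genes, 222 of them called, 33 lost and 9 gained a call in at least 1 alternative. Counts in the leading direction of a comparison moved by over 1.5 times as follows, and the cause was not tested. Median-ratio rescaling took decreases with gARID1A from 5 to 2 and increases in KOPT-K1 from 11 to 5. Fitting only the groups compared took decreases in DMSO at 8 d against 6 h from 30 to 13 and the members with a higher response in CCRF-CEM than in TALL-1 from 19 to 12. The replicate block took that count from 19 to 31 and the count for CCRF-CEM against KOPT-K1 from 0 to 4 (pairing is by number only in KOPT-K1 and TALL-1); in the 9 comparisons with a control it moved no count by over 1.5 times. In CCRF-CEM, where same-numbered libraries deviated together in the data though no label says that numbers pair them, it gave 29 increases against 25. Same-numbered libraries correlated best with each other for all 3 numbers in Jurkat at 6 h, gARID1A_1B, CCRF-CEM, KOPT-K1 and TALL-1. Leaving out 1 library at a time gave 5 to 14 increases in KOPT-K1 (5 without BRM014 replicate 2 or DMSO replicate 1, 6 without BRM014 replicate 3) and 5 to 10 decreases in TALL-1 (5 without BRM014 replicate 1 or DMSO replicate 3). It gave 0 to 4 for CCRF-CEM above KOPT-K1 (4 without CCRF-CEM DMSO replicate 3), 12 to 28 for CCRF-CEM above TALL-1 (12 without TALL-1 DMSO replicate 3) and 5 to 10 for KOPT-K1 above TALL-1. There the count was 5 without KOPT-K1 BRM014 replicate 3, TALL-1 BRM014 replicate 1 or TALL-1 DMSO replicate 3, and 6 without KOPT-K1 DMSO replicate 1 or TALL-1 BRM014 replicate 2. Removing replicate 3 from both TALL-1 groups took CCRF-CEM above TALL-1 from 19 to 11. Counts of 3 or fewer also moved, for example decreases in CCRF-CEM from 3 to 5 and increases in Jurkat at 8 d from 2 to 1 and in TALL-1 from 3 to 1 with rescaling, and increases at 8 d from 2 to 4 at most with 1 library left out. Increases in Jurkat at 6 h ranged from 20 to 27, and decreases at 8 d from 33 to 39 over all alternatives. Rescaling moved the members' median from −0.38 to −0.47 at 8 d. With at least 207 reads per member and library, depth limited no member's detection.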
